A study of Mus musculus with 6 samples.

Results

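The genes described here are 8 mouse genes, Stfa2, Stfa2l1, Stfa3, Cstdc4, Wfdc17, Asprv1, Prok2 and Retnlg, taken by symbol from the 32285 genes of the feature table, where all 8 were found. They were chosen from earlier results of these data, as genes that were near absent from marrow neutrophils of mice without a tumor, so the difference between mice with and without a tumor is given as a description and was not tested. Bone marrow cells enriched for c-Kit with magnetic beads came from 9 female BALB/c mice, 10 weeks old at harvest. The non-tumor-bearing (NTB) group held 3 untreated mice. The other groups each held 3 mice carrying 4T1, a mouse mammary tumor line. Vehicle mice received DPBS and brequinar (BRQ) mice received brequinar at 10 mg/kg, in both cases by daily intraperitoneal injection for 2 weeks from the time a tumor could first be measured. Brequinar inhibits dihydroorotate dehydrogenase, an enzyme of pyrimidine synthesis. Each of 3 pools combined 1 mouse of each group, told apart by antibody hashtags (B0301 for NTB, B0302 for vehicle, B0303 for BRQ), and was run as 1 droplet library for 3' RNA sequencing. The unit of comparison was therefore the mouse, 3 per group, and the mice of 1 pool shared a library.

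Neutrophils are made in the marrow from granulocyte-monocyte progenitors (GMPs). As they mature they fill their granules in order, closing the genes for primary granules (Mpo, Elane) before those for secondary and tertiary granules (Ltf, Ngp, Camp, then Mmp8 and Mmp9), and they switch on receptors such as Cxcr2 last. Stefins are small cystatins of the cell interior that block cysteine proteases such as cathepsins, and mice carry many copies of the gene side by side. Of the other genes, Wfdc17 encodes a small secreted protein with a WAP domain, Asprv1 an aspartic protease, Prok2 the secreted peptide prokineticin 2 (Bv8), which acts on G protein-coupled receptors and is known for effects on myeloid cells and blood vessels, and Retnlg the secreted resistin-like molecule gamma, a transcript of maturing neutrophils.

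On the GRCm38 assembly with GENCODE M21 genes, the stefin A cluster held 10 genes in 335.4 kb at chr16:36119946-36455392. The members among them were Stfa2l1 (chr16:36156811-36161953, plus strand), Cstdc4 (chr16:36184212-36188111, plus strand), Stfa2 (chr16:36403992-36408457, minus strand) and Stfa3 (chr16:36450537-36455392, minus strand). Retnlg lay on the same chromosome at chr16:48872621-48874496, Wfdc17 at chr11:83703991-83706268, Asprv1 at chr6:86628164-86629710 and Prok2 at chr6:99711299-99726392. Some of the stefin copies were close to each other in sequence. Transcripts of Stfa2 and Stfa2l1 were identical at 95.71% of 373 aligned bases, and those of Cstdc4 and Csta2 at 94.88% of 410, whereas Stfa3 was at most 83.67% identical to any copy (Csta3, 294 bases). Over the last 500 bases of the transcripts or fewer, the share of 90-base windows that another gene of the cluster also held was 2.09% for Stfa2, 2.42% for Stfa2l1, 0% for Stfa3 and 15.4% for Cstdc4, so reads could be split between copies and a sum over all 10 genes was followed beside each one.

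The 250 bases before the RefSeq start of the 4 stefin members are printed to show how far the copies are alike outside the transcript (GRCm38.p6, each read 5' to 3' on the strand of its gene, at chr16:36408364-36408613 for Stfa2, chr16:36156561-36156810 for Stfa2l1, chr16:36455393-36455642 for Stfa3 and chr16:36183962-36184211 for Cstdc4). Capitals mark matches to the PU.1 core (GAGGAA or its reverse complement TTCCTC), to the C/EBP motif (TTGCNNAA or TTNNGCAA) or to the STAT motif (TTCNNNGAA).
Stfa2: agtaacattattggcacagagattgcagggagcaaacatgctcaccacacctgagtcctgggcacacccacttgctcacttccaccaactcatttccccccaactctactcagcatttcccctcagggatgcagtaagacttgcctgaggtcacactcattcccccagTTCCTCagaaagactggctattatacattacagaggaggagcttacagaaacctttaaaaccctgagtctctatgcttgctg
Stfa2l1: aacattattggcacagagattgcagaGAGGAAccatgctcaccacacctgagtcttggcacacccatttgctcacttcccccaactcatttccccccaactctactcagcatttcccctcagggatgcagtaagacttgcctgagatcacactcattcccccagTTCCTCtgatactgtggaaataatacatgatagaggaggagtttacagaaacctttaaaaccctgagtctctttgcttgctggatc
Stfa3: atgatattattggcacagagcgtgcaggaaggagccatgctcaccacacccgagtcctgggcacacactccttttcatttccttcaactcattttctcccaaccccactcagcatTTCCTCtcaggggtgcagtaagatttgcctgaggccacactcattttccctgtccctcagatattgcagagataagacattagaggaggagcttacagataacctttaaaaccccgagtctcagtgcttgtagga
Cstdc4: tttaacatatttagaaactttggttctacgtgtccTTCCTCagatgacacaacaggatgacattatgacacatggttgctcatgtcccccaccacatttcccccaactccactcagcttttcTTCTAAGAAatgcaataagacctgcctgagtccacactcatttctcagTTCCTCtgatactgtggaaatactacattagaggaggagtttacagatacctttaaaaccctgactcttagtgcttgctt
The core TTCCTC stood at a like distance in 3 of them, starting 82 bases before the start of Stfa2, 86 before Stfa2l1 and 80 before Cstdc4. The Stfa3 match lay farther away, 135 bases before the start. In windows from 250 bases before to 50 after the start, 6 of the 8 members (the 4 stefins, Wfdc17 and Asprv1) held the PU.1 core on either strand, as did 28.31% of 27025 mouse promoters. The 4 stefins are copies with like sequences, so their matches are not independent and no excess over that share is read. The C/EBP motif occurred in Retnlg alone among the members (10.75% of all promoters) and the STAT motif in Cstdc4 alone (8.466%). These are letter matches in 1 window, not binding data.

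The pools held 39488 barcodes, of which 32762 passed the limits on genes and mitochondrial reads. Hashtags gave 15966 of these to a single mouse, while 31.5% to 52.1% of the barcodes per pool were called negative for every hashtag. The pools shared 38 to 48 barcode sequences in each pair. Clusters were found without the 8 members and the other stefin A genes, so that cell groups did not depend on them. Of the 22 clusters, 5 carried neutrophil markers and were called neutrophil-like, with 10515 barcodes and 4168 cells assigned to a mouse (129 to 1065 per mouse). These were cluster 9 (led by Camp, Ngp and Fcnb), cluster 3 (Chil3, Camp, Ngp and Ltf), cluster 10 (Ifitm6, Ltf and Ly6g), cluster 12 (Mmp8, Mmp9 and S100a6 beside members) and cluster 2 (Il1b, with a median of 1395 UMIs per barcode). Depth differed between groups, with medians of 6236 to 7630 UMIs per neutrophil-like cell in NTB, 1636 to 2428 in vehicle and 2756 to 4670 in BRQ mice, and UMI counts below are scaled to the total of all UMIs in the same cells and given as CPM.

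All 8 genes were carried mainly by neutrophil-like cells. Between 80.5% (Wfdc17) and 87.7% (Stfa2l1) of a member's UMIs in kept barcodes lay there, and 7.45% to 9.87% lay in cluster 13, which stayed unnamed because Scrublet marked 77.15% of its barcodes as doublets. Within single mice the neutrophil-like share, as the median over the members, was 66.7%, 72.7% and 68.4% in NTB mice, against 93.5%, 85.2% and 93.2% with vehicle and 87.0%, 76.6% and 82.1% with BRQ. Over the neutrophil-like barcodes of all mice the level was 184 CPM for Stfa2, 187 for Stfa2l1, 127.1 for Stfa3, 264.8 for Cstdc4, 1602 for Wfdc17, 95.2 for Asprv1, 95.4 for Prok2 and 3803 for Retnlg. In GMP-like barcodes the stefin members, Asprv1 and Prok2 were at 0.433 to 1.504 CPM, Wfdc17 at 9.67 and Retnlg at 14.0. Erythroid-like barcodes, which should lack these genes, had 1.31 to 4.98 CPM of the same 6 genes, 29.2 of Wfdc17 and 86.7 of Retnlg, so the GMP-like values did not exceed that background. One gene stood out from this picture in other cell types. Wfdc17 was at 271 CPM in HSC/MPP-like barcodes (stem and multipotent progenitor-like, led by Hlf and Meis1) and at 293 CPM in macrophage-like ones.

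**Figure D1:**
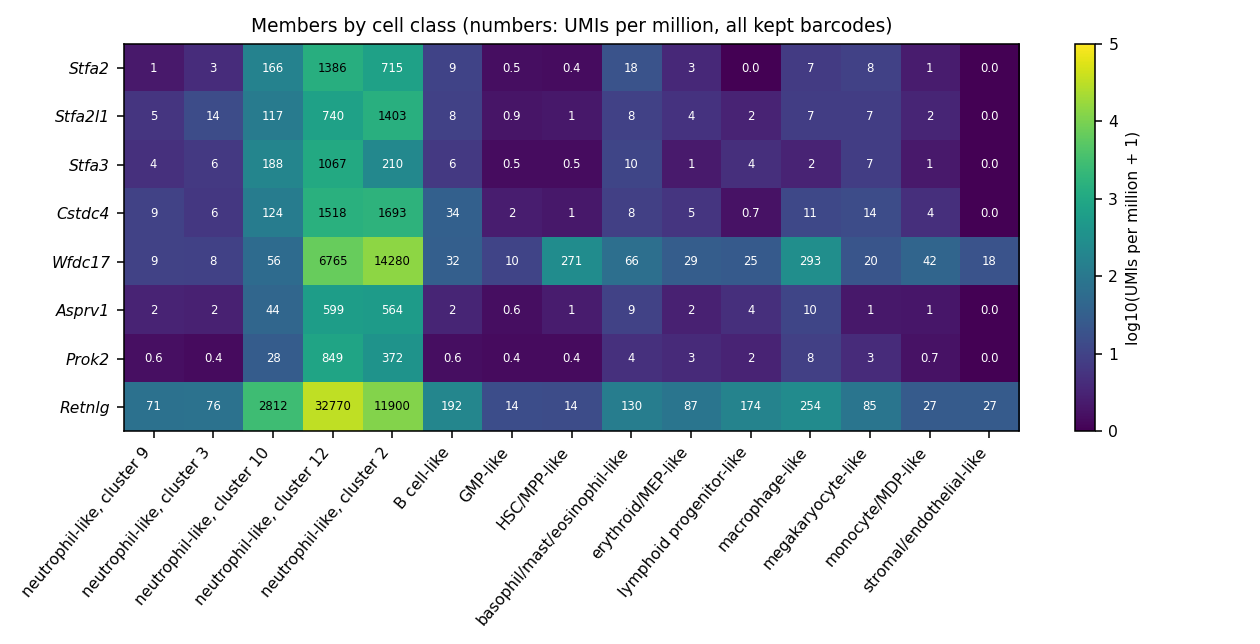
Level of each member in CPM (colour, log scale) in the neutrophil-like clusters and the other cell classes, summed over all kept barcodes. The highest values of every member lie in clusters 12 and 2, for example 32770 CPM of Retnlg in cluster 12 and 14280 CPM of Wfdc17 in cluster 2, and Wfdc17 is also at 271 CPM in HSC/MPP-like and 293 CPM in macrophage-like cells.

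Within the neutrophil-like cells, the members separated by stage. In cluster 3, next in order after cluster 9 by its granule genes, the stefin members, Wfdc17, Asprv1 and Prok2 were at 0.376 to 13.6 CPM and Retnlg at 75.9 CPM. Cluster 10 was higher in the stefins (117.3 CPM of Stfa2l1 to 187.7 CPM of Stfa3) and Retnlg (2812 CPM), while Wfdc17 was at 55.8, Asprv1 at 43.8 and Prok2 at 28.1 CPM. Cluster 12 had the highest level of Stfa2 (1386 CPM), Stfa3 (1067), Asprv1 (598.9), Prok2 (848.8) and Retnlg (32770). Cluster 2 had the highest level of Stfa2l1 (1403 CPM), Cstdc4 (1693) and Wfdc17 (14280). Of the UMIs in neutrophil-like cells assigned to a mouse, clusters 2 and 12 together held 67.3% for Stfa3, the lowest share, and 99.0% for Wfdc17, the highest. These levels are summed over all barcodes of a cluster and are a description, since the clusters are made from the same cells. The order of clusters 12 and 2 was not the same in every mouse. Asprv1, for example, was at 796 CPM in cluster 2 and 571.8 in cluster 12 of the vehicle mouse of pool 1.

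Across mice, the stefins were low in every NTB mouse and higher in every mouse with a tumor. Stfa2 was at 0, 9.15 and 20.6 CPM in the neutrophil-like cells of the NTB mice of pools 1, 2 and 3 (3 UMIs would have been 2.92 CPM in the first), at 227.9, 406.9 and 631.9 in vehicle mice and at 138.8, 122.9 and 871.6 in BRQ mice. The groups with a tumor did not overlap with NTB but overlapped with each other, and the BRQ mouse of pool 3 was the highest of all. Stfa2l1 was at 12.7, 19.8 and 19.5 CPM in NTB mice, against 302.3, 652.6 and 861.7 with vehicle and 160.2, 146.4 and 623.2 with BRQ. Stfa3 was at 14.6, 12.5 and 16.8 CPM in NTB mice, against 147.7, 143.9 and 319.1 with vehicle and 172.8, 101.1 and 741.3 with BRQ. Cstdc4, a further stefin-type gene of the cluster, was at 38.9, 50.3 and 27.6 CPM in NTB mice, against 534.4, 828.8 and 1120 with vehicle and 277.2, 186.5 and 799.3 with BRQ. In each of the 4, the mouse of pool 3 was the highest of the vehicle and of the BRQ group.

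Among the secreted proteins and the protease, the mouse of pool 3 was again the highest of the vehicle and of the BRQ group for every gene. Wfdc17 was at 62.3, 182.1 and 99.97 CPM in NTB mice, against 2299, 6320 and 9565 with vehicle and 914.5, 733.8 and 3805 with BRQ, the largest ratio of group means between vehicle and NTB among the members (52.8). Asprv1 was at 7.79, 9.46 and 7.45 CPM in NTB mice, against 153.8, 280.4 and 395.7 with vehicle and 96.6, 81.5 and 276.3 with BRQ. Prok2 was at 1.95, 9.15 and 11.2 CPM in NTB mice, against 142.7, 255.6 and 343.9 with vehicle and 46.7, 61.9 and 346.3 with BRQ. Retnlg had the highest level of the members in NTB mice, at 815.8, 1048 and 807.2 CPM in NTB mice, against 3946, 8062 and 10740 with vehicle and 4715, 4882 and 11430 with BRQ. For all 8 members every vehicle mouse lay above every NTB mouse, which held for 17.2% of 9584 genes with at least 50 UMIs in these cells, and every BRQ mouse lay above every NTB mouse, which held for 21.1%. Because the members were chosen on this contrast, nothing is read from these counts. The ratio of group means ran from 8.52 (Retnlg) to 52.8 (Wfdc17) with a median of 33.4 for vehicle over NTB, and from 7.87 to 38.1 with a median of 18.1 for BRQ over NTB.

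**Figure D2:**
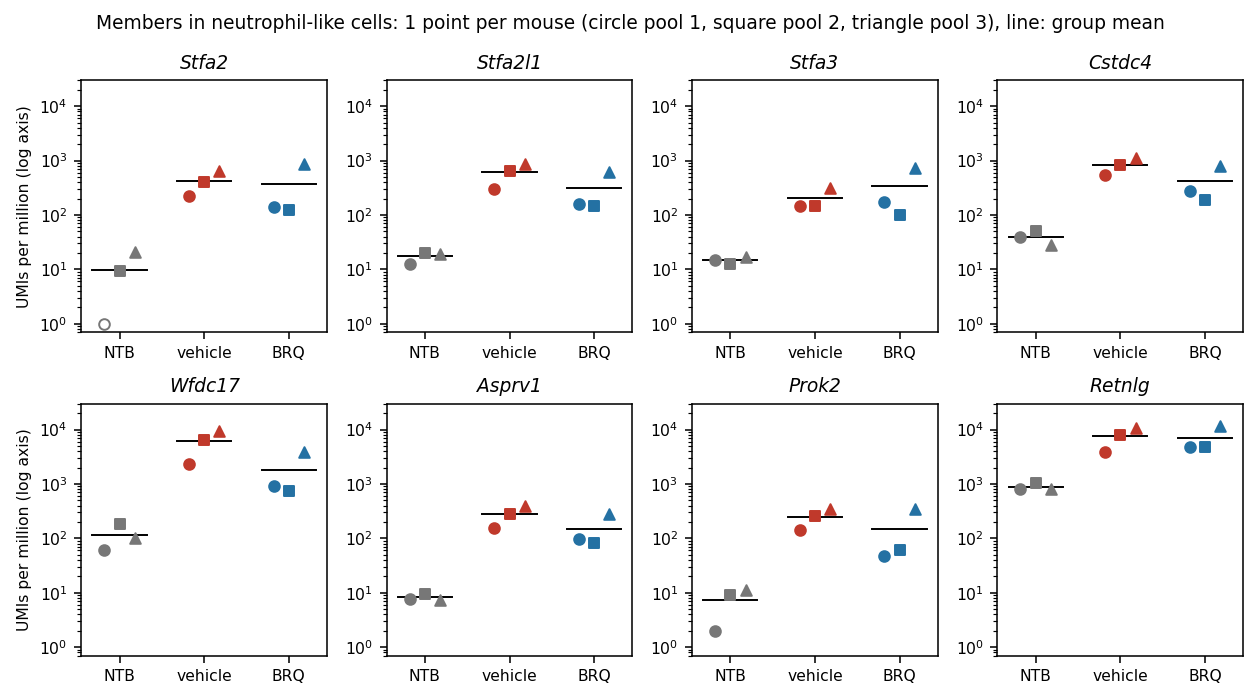
Level of each member in neutrophil-like cells in CPM (log axis), 1 point per mouse with the group mean as a line and the open circle marking 0 UMIs drawn at the foot of the axis. All vehicle and BRQ mice lie above all NTB mice, and the pool 3 mice (triangles) are the highest of their group in vehicle and BRQ.

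The cells that carried the genes were also a different share of the neutrophil-like cells in each group. Clusters 2 and 12 made up 7.44% ± 1.48 (SD, n = 3 mice) of neutrophil-like cells in NTB, 75.5% ± 14.6 in vehicle and 55.0% ± 18.3 in BRQ mice. The cells had been enriched for c-Kit, so all shares here are of cells that came through that step, not of marrow neutrophils. The vehicle mice stood at 59.4%, 79.4% and 87.85% and the BRQ mice at 47.65%, 41.6% and 75.9%, so the pool 3 mice were again the highest of both groups. Vehicle and BRQ mice overlapped in this share (exact two-sided permutation test, p = 0.2). Cluster 2 alone held 3.43% ± 1.83 in NTB, 64.2% ± 13.8 in vehicle and 29.6% ± 8.42 in BRQ mice. Every BRQ mouse was below every vehicle mouse in cluster 2 (exact two-sided permutation test, p = 0.1, the smallest that 3 against 3 mice allow). Cluster 12 went the other way, from 4.01% ± 0.663 in NTB and 11.3% ± 0.939 in vehicle to 25.4% ± 11.2 in BRQ mice, again without overlap between vehicle and BRQ (exact p = 0.1). Neutrophil-like cells as a whole were 34.5% ± 10.3 of assigned cells in NTB, 30.3% ± 10.6 in vehicle and 19.1% ± 1.84 in BRQ mice (BRQ against vehicle, exact p = 0.3). The share of barcodes without a hashtag call moved with cluster and pool, for example 20.95% of cluster 2 in pool 1 and 74.1% in pool 2. With hashtags called instead from the ratio of the tags (the highest at least 1.5 times the next, chosen after the data had been seen), clusters 2 and 12 made up 5.02% ± 0.711 in NTB, 76.1% ± 21.7 in vehicle and 54.5% ± 19.5 in BRQ mice.

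**Figure D3:**
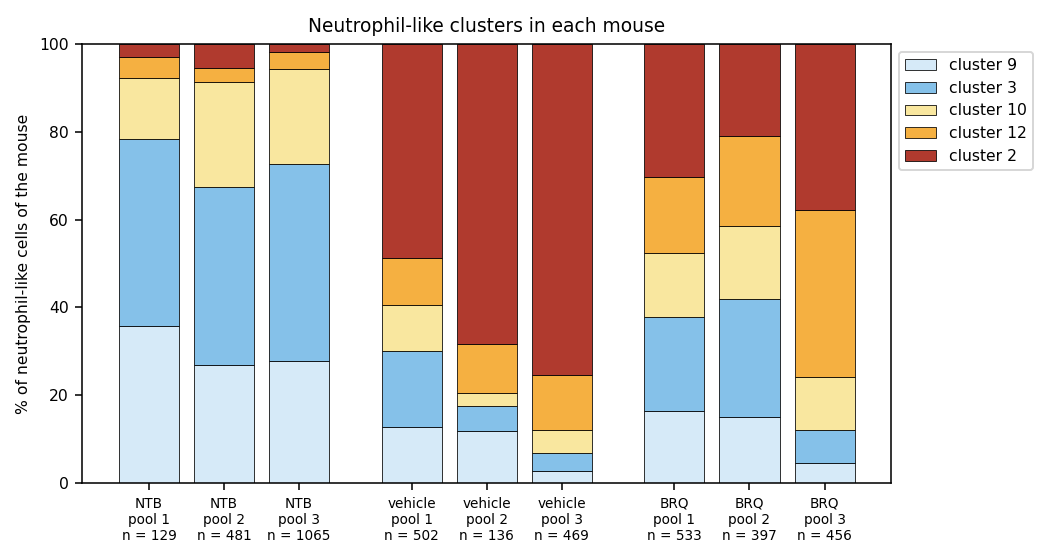
Share (%) of each of the 5 neutrophil-like clusters in each mouse, with the number of cells below each bar. Clusters 12 and 2 fill 5.82% to 8.73% of the NTB bars, 59.4% to 87.85% of the vehicle bars and 41.6% to 75.9% of the BRQ bars.

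When the level was taken as the mean of the 5 cluster levels, giving each cluster the same weight in every mouse, the ratios between groups were smaller. Vehicle over NTB ran from 1.15 (Retnlg) to 3.77 (Stfa3) with a median of 2.51 over the 8 members, where summing the cells had given 33.4. BRQ over NTB ran from 1.07 (Wfdc17) to 4.12 (Stfa3) with a median of 1.52. With hashtags called from tag ratios the medians were 2.79 and 1.76, and BRQ over NTB ran from 0.925 (Cstdc4) to 2.55 (Stfa2), with Stfa3 at 2.39. Retnlg was nearly level between groups on this scale (ratios of 1.15 and 1.08, and 1.12 and 1.12 with tag ratios). Among the stefin members vehicle over NTB ran from 1.67 (Cstdc4) to 3.77 (Stfa3), and with tag ratios from 1.37 (Cstdc4) to 3.48 (Stfa2). With tag ratios Prok2 had the highest ratio of the members, 3.90.

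Inside single clusters the description as near absent without a tumor held for some members and not for others, with few NTB cells behind it. The NTB mice of pools 1, 2 and 3 had 4, 26 and 19 cells in cluster 2, 6, 16 and 43 in cluster 12 and 18, 115 and 229 in cluster 10, and the vehicle mouse of pool 2 had 15 cells in cluster 12 and 4 in cluster 10. With tag ratios the NTB mice had 19, 26 and 26 cells in cluster 2, 30, 20 and 48 in cluster 12 and 237, 247 and 286 in cluster 10, out of 1130, 927 and 1286 neutrophil-like cells in place of 129, 481 and 1065. Retnlg was present at high levels in the later NTB cells. In cluster 12 it was at 27520, 32310 and 29000 CPM in NTB mice, against 34660, 37040 and 35880 with vehicle and 36440, 34830 and 30250 with BRQ. With tag ratios the values in cluster 12 were 30640, 35130 and 30650 CPM in NTB mice and 35240, 34000 and 31970 with vehicle, so NTB and vehicle mice overlapped. In cluster 2 it was at 9582, 14590 and 11830 CPM in NTB, against 10160 to 11430 CPM in the 6 tumor-bearing mice.

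Wfdc17 was present in NTB cells of the same clusters. In cluster 2 it was at 4422, 13510 and 11900 CPM in NTB mice, against 13370, 14880 and 16600 with vehicle and 9561, 8158 and 9294 with BRQ, and in cluster 12 at 2638, 2173 and 2880 CPM in NTB mice, against 7274, 10710 and 13260 with vehicle and 2282, 3012 and 7540 with BRQ. The NTB mice thus lay below all vehicle mice in cluster 12 and overlapped with BRQ mice in both clusters. With tag ratios Wfdc17 in cluster 2 was at 1556, 9039 and 7909 CPM in NTB mice, against 13400, 17550 and 15330 with vehicle. In cluster 12 it was then at 191.2, 2008 and 4158 CPM in NTB mice, against 6571, 12750 and 10980 with vehicle. NTB mice thus lay below vehicle mice in both clusters. Of the 479 UMIs behind 13510 CPM, 221 came from the 4 cells that the tag ratio did not also give to that mouse. In cluster 2, 53.85% and 73.7% of the NTB cells of pools 2 and 3 held a Wfdc17 UMI, against 97.85% to 98.3% with vehicle. Asprv1 in cluster 2 was at 552.8, 507.8 and 306.0 CPM in NTB, against 499.2 to 796 in the tumor-bearing mice. The first value was 3 UMIs in 4 cells. Of the 18 UMIs behind the second, 9 came from the 4 cells that the tag ratio did not also give to that mouse. With tag ratios Asprv1 was at 401.5, 371.5 and 279.1 CPM in NTB, against 521.5 to 798.9, without overlap. In cluster 12 Asprv1 was at 71.3, 73.3 and 314.5 CPM in NTB, against 487.4 to 853.7 in the tumor-bearing mice.

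In cluster 3, every vehicle mouse lay above every NTB mouse for 4 members, the stefins (background 5.95% of genes), and every BRQ mouse did for 1 (14.3%), counts from which nothing is read since the contrast chose the members. Stfa2 there was at 0, 1.22 and 1.53 CPM in NTB mice, against 7.16, 11.7 and 88.4 with vehicle and 0.893, 0.917 and 7.35 with BRQ, and the stefin sum was at 63.8, 56.5 and 36.9 CPM, against 150.3, 1103 and 1217 with vehicle and 47.3, 75.2 and 279.4 with BRQ. The vehicle mice of pools 2 and 3 had 8 and 19 cells behind these values, and the pool 2 mouse had 1 UMI of Stfa2, where 3 would be 35.2 CPM. In cluster 10 Stfa2 was at 0, 3.84 and 31.6 CPM in NTB mice, against 307.3, 505.9 and 341.7 with vehicle and 351.2, 92.8 and 681.7 with BRQ. In cluster 12 it was at 0, 24.4 and 796.1 CPM in NTB mice, against 1557, 1591 and 1212 with vehicle and 605.1, 841.5 and 1992 with BRQ. In cluster 2 it was at 0, 705.3 and 1020 CPM in NTB mice, against 678.7, 599.1 and 873.1 with vehicle and 378, 400.9 and 871.2 with BRQ, so 2 of the 3 NTB mice were within the range of the vehicle mice or above it. Few cells carried these NTB values. All 25 Stfa2 UMIs of the pool 2 NTB mouse in cluster 2 came from 3 of the 4 cells that the tag ratio did not also give to that mouse, and its 22 cells called alike both ways held 0 UMIs of Stfa2 and of Stfa3. The same 22 cells held 28 UMIs of Stfa2l1 in 9 cells (1012 CPM) and 42 of Cstdc4 in 8 cells (1517 CPM), so the copies were not alike in these cells. The pool 3 NTB mouse had 30 Stfa2 UMIs in 4 of its 17 cells called alike both ways. With tag ratios Stfa2 in cluster 2 was at 0, 0 and 721.1 CPM in NTB mice, and in cluster 12 at 76.5, 0 and 1436 CPM. Prok2 in cluster 12 was at 0, 244.2 and 491.4 CPM in NTB mice, against 1302, 1116 and 1212 with vehicle and 369.8, 441.6 and 950.7 with BRQ, without overlap between NTB and vehicle. Every vehicle mouse lay above every NTB mouse for 5 members in cluster 10 (background 4.13% of genes), 6 in cluster 12 (5.8%) and 1 in cluster 2 (14.8%), and every BRQ mouse did for 3 members in cluster 10 (12.3%), 2 in cluster 12 (8.3%) and 0 in cluster 2 (14.5%). With tag ratios these counts for vehicle were 7 (6.16%), 3 (6.65%) and 4 (11.8%) in clusters 10, 12 and 2, and for BRQ 6 (19.5%), 2 (9.14%) and 2 (10.8%), so the order of clusters 12 and 2 changed with the calls. A count of 0 in the 4 cells of the pool 1 NTB mouse in cluster 2 allows up to 552.8 CPM (3 UMIs, counting error only).

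**Figure D4:**
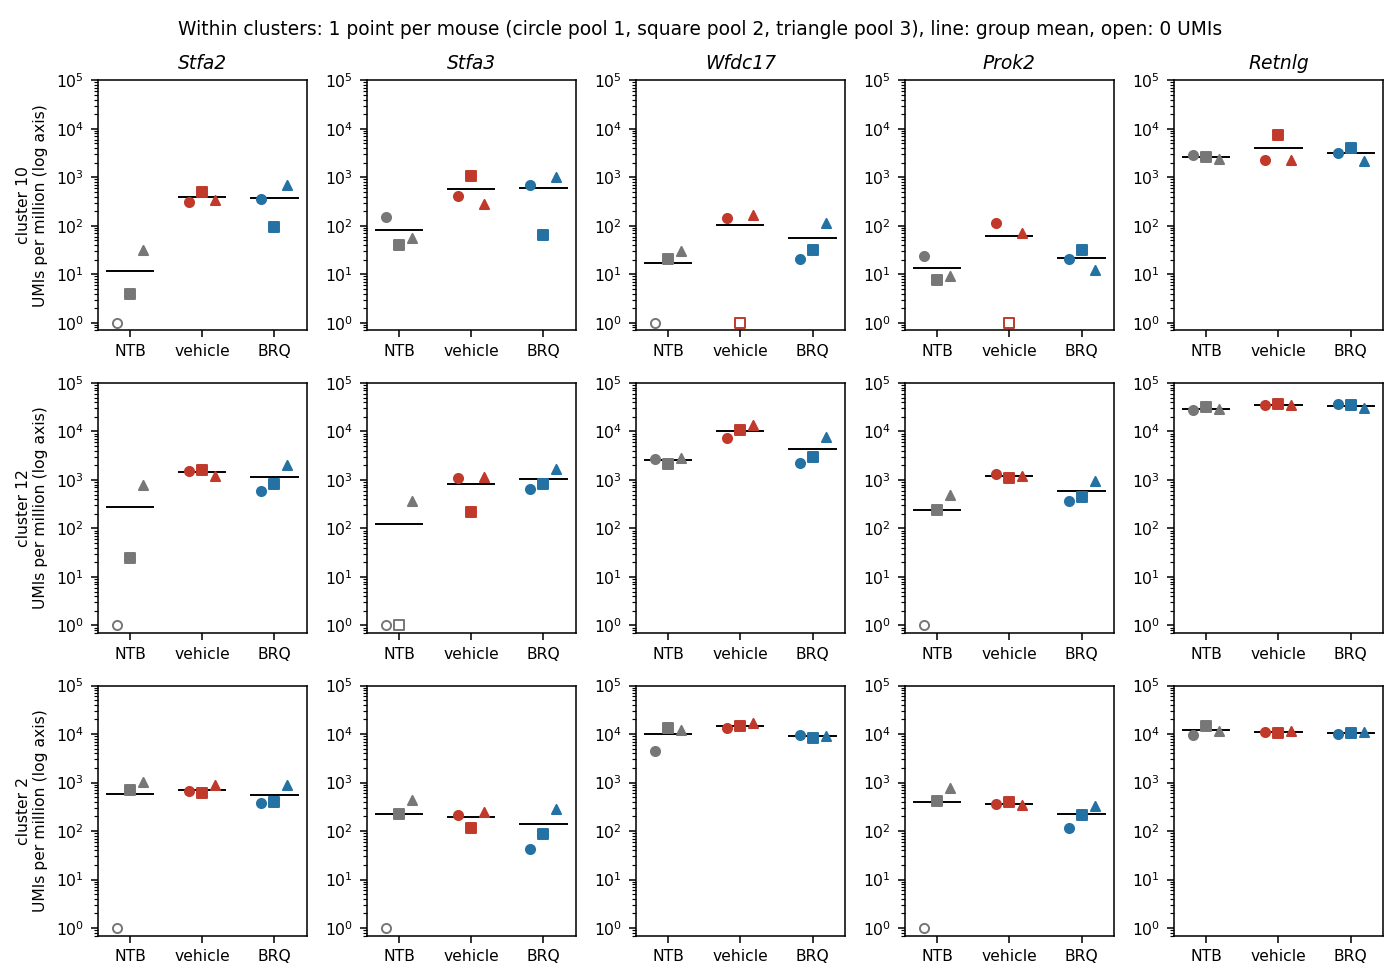
Level of 5 members (CPM, log axis) in clusters 10, 12 and 2, 1 point per mouse, with open symbols for mice at 0 UMIs. Retnlg is near level between groups in clusters 12 and 2, whereas Stfa2 in cluster 10 lies at 0 to 31.6 CPM in NTB mice and at 92.8 CPM or more in all tumor-bearing mice.

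The effect of BRQ was not part of how the genes were chosen and was tested with edgeR's quasi-likelihood test on UMIs summed per mouse, with Benjamini-Hochberg adjustment over all genes tested. In all neutrophil-like cells, none of the 8 members passed, and 3 of 8858 genes did (0.0339%, all higher in BRQ). Wfdc17 had the largest fitted difference, with a log2 fold change of -1.82 ± 0.61 (SE, adjusted p = 0.42), from a mean of 6061 ± 3640 CPM (SD, n = 3) in vehicle to 1818 ± 1723 in BRQ mice. Cstdc4 (-1.06 ± 0.43), Stfa2l1 (-1.04 ± 0.47), Asprv1 (-0.94 ± 0.40) and Prok2 (-0.80 ± 0.59) were also lower without passing, and Stfa2 (-0.26 ± 0.67), Retnlg (-0.18 ± 0.36) and Stfa3 (0.61 ± 0.54) were nearer to 0 in units of their SE. The sum of the stefin A genes was at -0.43 ± 0.50. Taken within pools 1, 2 and 3, log2 BRQ over vehicle was -1.33, -3.11 and -1.33 for Wfdc17, -0.95, -2.15 and -0.49 for Cstdc4, -0.92, -2.16 and -0.47 for Stfa2l1 and -0.67, -1.78 and -0.52 for Asprv1. These 4 genes were lower with BRQ in all 3 pools, whereas Prok2 (-1.61, -2.05 and 0.01), Stfa2 (-0.72, -1.73 and 0.46), Stfa3 (0.23, -0.51 and 1.22) and Retnlg (0.26, -0.72 and 0.09) were not. Other settings called some members, all lower in BRQ. Without the filter on low counts Wfdc17, Cstdc4, Stfa2l1, Asprv1 and Prok2 passed among 197 genes, a tag ratio of 3 called Asprv1 (-1.14, adjusted p = 0.041) and limits of 500 to 7500 UMIs per cell called Wfdc17 (-1.41, adjusted p = 0.0096). The calls turned on single mice as well. Without the BRQ mouse of pool 3, 136 genes passed and Wfdc17 (-2.87, adjusted p = 0.021), Prok2, Stfa2l1, Cstdc4 and Asprv1 were among them. Without the vehicle mouse of pool 1, 259 genes passed and Wfdc17 was called at an adjusted p of 0.049. With the pool as a replicate block, 34 genes passed (0.384%) and no member did, Wfdc17 being nearest (-1.84 ± 0.38, adjusted p = 0.058).

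Taken by stage, Wfdc17 was lower in BRQ than in vehicle mice in all 3 later clusters. These fits within clusters were added after the data had been seen. In cluster 2 it fell by 0.78 on the log2 scale (SE 0.11, adjusted p = 5.7e-05), with no overlap between the BRQ mice (8158 to 9561 CPM) and the vehicle mice (13370 to 16600 CPM), where 10 of 4328 genes passed (0.231%). The call was kept without any 1 of the 7 mice in the fit (log2 fold changes of -0.85 to -0.71), with tag ratios (-0.86, adjusted p = 2.6e-05) and with the replicate block (-0.78 ± 0.06, adjusted p = 2.7e-28, 27 genes passing or 0.624%). The block fit spends most of its 7 mice on group and pool terms. Its very small p-value therefore rests on a spread shared over genes and is not read as stronger evidence from the mice. Prok2 in cluster 2 had a log2 fold change of -0.70 ± 0.21 (adjusted p = 0.29) and passed with the block (-0.71 ± 0.17, adjusted p = 0.0066) and without the BRQ mouse of pool 3 (-1.28, adjusted p = 0.00016), in which case Stfa2, Stfa2l1 and Stfa3 passed as well. Retnlg in cluster 2 had a log2 fold change of -0.12 ± 0.10.

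In cluster 12, with the vehicle mice of pools 1 and 3, all 3 BRQ mice and 1 NTB mouse in the fit, 17 of 3409 genes passed (0.499%) and 3 members were among them. Wfdc17 fell by 1.40 (SE 0.25, adjusted p = 0.00074), Prok2 by 1.19 (SE 0.21, adjusted p = 0.00064) and Cstdc4 by 0.92 (SE 0.18, adjusted p = 0.0023). Where 1 of the 2 vehicle mice was left out, the other was assumed to vary like the remaining groups. Leaving out the BRQ mouse of pool 2 ended all 3 calls (adjusted p = 0.20, 0.14 and 0.17), at log2 fold changes of -1.22, -1.05 and -0.87. Leaving out the vehicle mouse of pool 1 took Cstdc4 to -0.50. Over all mice left out in turn, Wfdc17 ran from -2.04 to -0.93. With tag ratios Wfdc17 (-1.55, adjusted p = 0.068) and Cstdc4 (-0.81, adjusted p = 0.11) missed the threshold while Asprv1 passed (-0.84, adjusted p = 0.023). With the replicate block 3 genes passed (0.088%), Wfdc17 at an adjusted p of 0.010, whereas Prok2 and Cstdc4 did not (log2 fold changes of -1.13 and -0.82, both at adjusted p = 0.15). Without the BRQ mouse of pool 3, 74 genes passed and all members but Retnlg were called, Stfa2 at -1.03 (adjusted p = 4.4e-07).

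In cluster 10, with the vehicle mouse of pool 2 and the NTB mouse of pool 1 left out for having under 20 cells, 10 of 4085 genes passed (0.245%), again with 3 members. Asprv1 fell by 2.59 (SE 0.43, adjusted p = 0.0010), Prok2 by 2.44 (SE 0.39, adjusted p = 0.00074) and Wfdc17 by 1.81 (SE 0.36, adjusted p = 0.0091). Leaving out 1 mouse in turn gave log2 fold changes of -3.44 to -1.52 for Asprv1, -2.80 to -1.88 for Prok2 and -2.77 to -1.37 for Wfdc17. The calls were lost without the vehicle mouse of pool 3 for Asprv1 (adjusted p = 0.18), without the vehicle mouse of pool 1 for Prok2 (0.42) and Wfdc17 (0.060), and without the BRQ mouse of pool 1 for Wfdc17 (0.17). The first 2 of these fits also held 1 vehicle mouse, taken to vary like the other groups. The summed stefins had a log2 fold change of 0.00 ± 0.30 in the same cells, and Stfa2 was called lower in BRQ with tag ratios (-1.28 ± 0.28, adjusted p = 0.0087). Stfa3 had 0.46 ± 0.40 (adjusted p = 0.81) and was called higher in BRQ with the replicate block (0.86 ± 0.21, adjusted p = 0.014, 32 genes passing or 0.783%) and without the BRQ mouse of pool 2 (adjusted p = 0.0066), whereas with tag ratios it was at -0.17. Retnlg was at 0.24 ± 0.19. No test compared the response of 1 member with that of another.

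**Figure D5:**
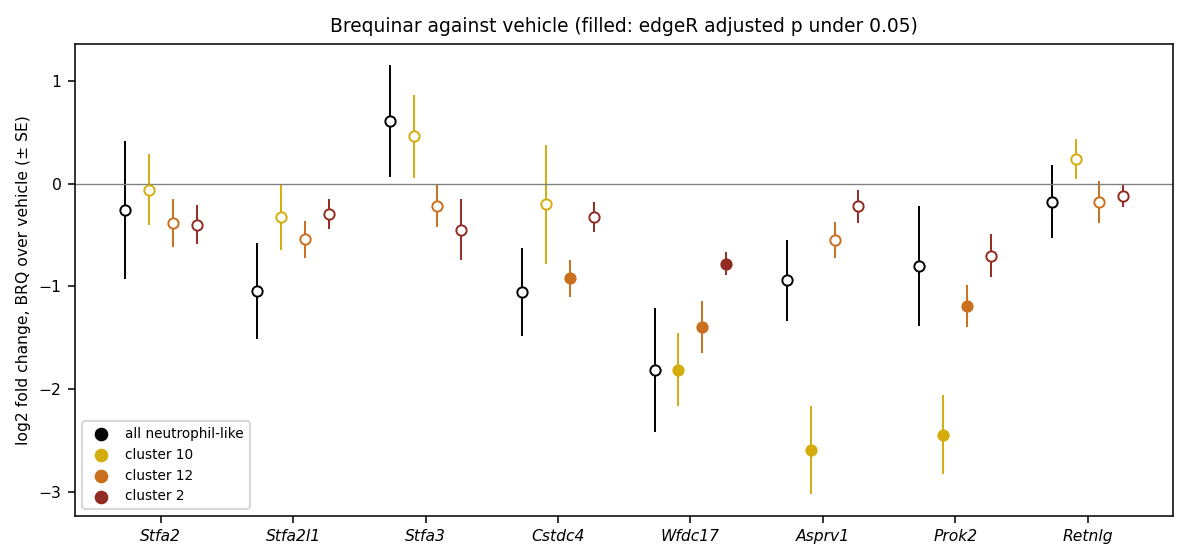
Log2 fold change between BRQ and vehicle mice (points) with its standard error (bars) for each member in all neutrophil-like cells and in clusters 10, 12 and 2, filled where the adjusted p is under 0.05. Wfdc17 lies below 0 in all 4 sets and is filled in the 3 clusters, and Retnlg lies between -0.18 and 0.24.

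Outside the neutrophils, Wfdc17 in HSC/MPP-like cells was at 24.9, 78.6 and 96.0 CPM in NTB mice, against 283.9, 272.2 and 181.9 with vehicle and 158.7, 241.2 and 443 with BRQ. All vehicle mice lay above all NTB mice, as for 6.62% of 10166 genes, and so did all BRQ mice, as for 9.12%, with 11 cells behind the vehicle mouse of pool 2. The share of these cells with a Wfdc17 UMI after thinning each cell to 1000 UMIs was 6.83% in NTB, 15.9% in vehicle and 19.3% in BRQ mice, against 1.51%, 2.56% and 2.49% in erythroid-like cells thinned the same way. Before thinning the shares were 24.0%, 52.2% and 50%, and 19.0%, 16.7% and 17.2% in erythroid-like cells. Retnlg, which exceeds Wfdc17 in neutrophil-like cells, was at 13.7 CPM in HSC/MPP-like barcodes beside 271 for Wfdc17. No difference between BRQ and vehicle mice was called there (log2 fold change of 0.15 ± 0.22, adjusted p = 1, 2 of 10049 genes passing or 0.0199%). In GMPs selected on Ms4a3, where 1389 of 10331 genes passed (13.4%), Retnlg was higher in BRQ (0.89 ± 0.24, adjusted p = 0.017), at 53.7, 87.4 and 133.6 CPM against 26.6, 75.8 and 49.0 in vehicle mice. The groups overlapped, and the level was about that of erythroid-like barcodes. These cells were chosen by their Ms4a3 level and not by cluster, and doublets marked by Scrublet were kept. They are therefore not the same set as the GMP-like barcodes above, in which Retnlg was lower. With the replicate block 2105 genes passed there (20.4%), Retnlg still among them (0.79 ± 0.11, adjusted p = 2.8e-07). In monocyte-like cells, where 508 of 9274 genes passed (5.48%), Wfdc17 had a log2 fold change of -0.73 ± 0.35 (adjusted p = 0.24) and passed with the block (-0.89 ± 0.20, adjusted p = 0.0021), as did Retnlg (-0.83 ± 0.24, adjusted p = 0.019), in a fit that called 742 genes (8%). Within pools 1, 2 and 3 the differences went both ways, at 0.40, -2.17 and -0.55 for Wfdc17 and -1.79, -1.41 and 0.58 for Retnlg. Over all assigned cells no member passed, with 539 of 13234 genes called (4.07%), and with the block Wfdc17, Cstdc4, Stfa2l1, Asprv1 and Prok2 did, all lower in BRQ, with 1204 genes called (9.1%).

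The other genes of the stefin cluster are copies read on the same contrast, so their values are no independent support for those of the members. Of 6 in the feature table, 3 passed the filter in neutrophil-like cells, and all 3 were higher in vehicle than in NTB mice, where 10.1% of 8858 genes were called higher. Csta3 rose by 5.08 on the log2 scale (SE 0.88), Cstdc6 by 4.08 (SE 0.66) and Cstdc5 by 3.88 (SE 0.59), with edgeR adjusted p of 0.0030, 0.0020 and 0.0016. In cluster 10, Cstdc5 (3.37 ± 0.41) and Cstdc6 (3.28 ± 0.57) were also called higher in vehicle than in NTB mice (2 NTB and 2 vehicle mice in the fit), beside 1.18% of 4085 genes. Among the targets and relatives of stefins, 9 cysteine cathepsins and other cystatins were tested. Of these 6 were higher in vehicle than in NTB mice, with Ctss (cathepsin S, 3.90 ± 0.84), Ctsc (cathepsin C, which activates granule proteases, 2.69 ± 0.62) and Ctsl (2.16 ± 0.59) the most changed and Ctsz, Cstb and Ctsb following, and Ctsh was lower (-0.82 ± 0.24, with 4.9% of all genes called lower). In BRQ against NTB mice 4 of the 9 were higher (Ctsc, Ctsl, Cstb and Ctsz), where 5.02% of all genes were called higher, and none passed between BRQ and vehicle, where 0.0339% of all genes did. The list's median log2 fold change was 1.07 for vehicle against NTB, beside -0.05 over all genes. With the replicate block 14.4% of all genes were called higher in vehicle than in NTB mice and 11.5% higher in BRQ than in NTB mice.

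Genes known to come on late in neutrophils were also higher in tumor-bearing mice when all neutrophil-like cells were summed. The list was chosen with earlier results of these data known and is read on the contrast that chose the members, so it is no independent evidence. Of 19 tested, 18 were higher in vehicle than in NTB mice (10.1% of all genes), with a median log2 fold change of 2.93, and the remaining Fpr2 was at 0.42 ± 0.22. Examples were Il1b (4.88 ± 0.58), Cxcr2, a chemokine receptor used to leave the marrow (3.68 ± 0.44), Csf3r, the G-CSF receptor (3.01 ± 0.39), and Mmp9 (2.40 ± 0.36). In BRQ against NTB mice the same number, 18, were higher (5.02% of all genes, median 2.13), and none passed between BRQ and vehicle (0.0339% of all genes, median -0.66). The fits of clusters 2 and 12 each held 1 NTB mouse (26 and 43 cells), so the list was not read there. In cluster 10, 4 of 15 were higher in vehicle than in NTB mice (Cxcr2, Slfn1, Grina and Lrg1), where 1.18% of all genes were, and 4 were higher in BRQ than in NTB mice (Cxcr2, Clec4e, Slfn1 and Lrg1), where 3.67% of all genes were. Of 14 genes listed for the granule stage of immature neutrophils, 6 were lower in vehicle than in NTB mice (4.9% of all genes), among them Chil3 (-1.69 ± 0.26) and Ltf (-1.20 ± 0.20), while Hp and Mmp8 were higher, and none of 6 primary granule genes was called. Among genes of the WAP-domain and resistin families, Wfdc18 (6.04 ± 0.86) and Retn, which encodes resistin (4.27 ± 0.75), were higher in vehicle than in NTB mice, and Slpi and Wfdc21 did not pass, nor did Capg, an actin-capping protein of the same list.

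Transcripts of different stefin genes were counted in the same cells. In 469 cluster 12 cells of tumor-bearing mice thinned to 1000 UMIs, Stfa3 was found in 60.9% of the cells with Stfa2 and in 8.76% of those without. Stfa2l1 was found in 48.6% against 19.3%, and Cstdc4 in 54.4% against 24.5%. Outside the gene cluster, Asprv1 was found in 31.9% against 30.5%, Prok2 in 49.3% against 43.5% and Wfdc17 in 84.8% against 71.0%. In 937 cluster 2 cells, Stfa3 was found in 27.96% of the cells with Stfa2 and 4.13% of those without, and Retnlg in 93.9% of the cells with Prok2 and 65.3% of those without. The cells come from 6 mice and the shares are a description. The share of 90-base windows that Stfa2 and Stfa3 have in common with other copies is given above, and its part in these values was not tested.

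Over the 22 clusters, the genes whose level was most like the summed stefins were Slfn1 (Pearson's r = 0.957 across clusters), Lilr4b (0.949), Mxd1 (0.947), Ccr1 (0.940) and Ceacam10 (0.933). For Retnlg they were S100a6 (0.970), Mmp9 (0.969), Mmp8 (0.952), Slfn1 (0.952) and Cyp4f18 (0.946). For Prok2 they included Fpr1 (0.978), Mirt2 (0.962), Gm16556 (0.960) and Cyp4f18 (0.958). The clusters come from the same libraries and differ in depth, so these values only describe which genes peak in the same cells.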

How the data were processed

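Gene and hashtag UMI counts per barcode were deposited for 3 pools. Per the labels and methods, the authors ran Cell Ranger 6.0.0 on the mm10 genome and Seurat, and no normalization had been applied to the deposited counts. Gene UMIs came to 128035770, 100700982 and 135564079 in pools 1, 2 and 3, and the median cell assigned to a mouse held 8212 to 13230 UMIs. Pairs of pools shared 43, 48 and 38 barcodes.

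Hashtags were called with HTODemux (Seurat 5.3.0, quantile 0.99) and only single-hashtag barcodes were given to a mouse. Barcodes with 500 to 7500 genes and at most 15% mitochondrial UMIs were kept. Clusters were found in scanpy 1.11.5 (2000 variable genes, 30 components, 20 neighbours, Leiden resolution 0.8, leidenalg 0.10.2) with the members and other stefin A genes, 14 in all, held out, and were called X-like from marker lists. Barcodes marked by Scrublet were kept, and leaving them out was an alternative.

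UMIs were summed per mouse and cell group and tested with edgeR 4.0.16 (TMM, filterByExpr, quasi-likelihood test, R 4.3.3) over all mice with at least 20 cells, with Benjamini-Hochberg adjustment over all genes and a threshold of 0.05. The SE given with an edgeR fold change is the absolute log2 fold change divided by the square root of the F statistic of that test. Shares were compared with exact two-sided permutation tests in scipy 1.17.1. In data simulated for BRQ against vehicle in neutrophil-like cells (8690 genes), 55% of 100 genes changed by 2-fold and 100% of 100 changed by 4-fold were recovered, with 9 false calls. The changed genes were drawn only from genes with higher counts. All mice were simulated from 1 profile with the fitted spread of each gene, without pool or NTB differences. These rates are therefore not rates for the members. Alternatives were DESeq2 1.42.0, no filter, other hashtag calls, other limits on cells, clusters with all genes, the replicate block and each mouse left out. Pairing comes from the labels, since the mice of a replicate number shared a pool. Deviations of same-pool mice from their group means correlated at -0.059 to 0.48 (median 0.12, 9 pairs), against a median of -0.063 between pools.

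Genes were named from the 8 members, the gene lists as far as the features held them, and the 5 genes most alike over clusters to the summed stefins, Retnlg and Prok2. The lists are given as counts with some of their genes as examples, and 1 of the genes most alike is not reported here. The members and lists were chosen with earlier results of these data known. Of 32285 gene identifiers, 32235 were found in GENCODE M21, and promoters came from RefSeq (GRCm38.p6), aligned transcripts being compared with biopython 1.88. Floors are 3 counts and cover counting error only. That the mice were separate animals comes from the labels.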

Additional observations from a re-analysis of the deposited data

Results flagged for a closer look

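Barcodes that HTODemux gave to no mouse entered no comparison between groups in the main setting, while the tag-ratio settings gave some of them to a mouse. Those in the neutrophil-like clusters held UMIs of the members. Of the 8 members, 7 in pool 1, 8 in pool 2 and 8 in pool 3 were above the highest NTB mouse among barcodes negative for every hashtag, and the counts were 7, 8 and 8 among barcodes called hashtag doublets. The members were chosen for low levels in NTB mice, and the share of all genes above the highest NTB mouse was not computed, so nothing is read from these counts. Wfdc17 was at 152.2, 2490 and 3770 CPM in the negative barcodes of pools 1, 2 and 3, and at 531.3, 1332 and 2547 CPM in the doublets. Stfa2 was at 31.6, 184.9 and 526.2 CPM in the negative barcodes and at 19.0, 163.1 and 351.4 CPM in the doublets. Of a member's UMIs in kept barcodes of every cell type, these neutrophil-like barcodes held 41.6% (Stfa3) to 46.25% (Asprv1) as negatives and 6.83% (Cstdc4) to 9.28% (Stfa2) as doublets. The levels given here were not split by the mice to which the tag ratios gave some of these barcodes.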

How the results depend on the processing

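In neutrophil-like cells, 3 genes were called between BRQ and vehicle, against 34 with the replicate block, 14 with DESeq2, 197 without the filter, 5 with a tag ratio of 3, 262 with 500 to 7500 UMIs per cell and 0 to 259 without 1 mouse. No filter called Wfdc17, Asprv1, Prok2, Stfa2l1 and Cstdc4, the tag ratio of 3 Asprv1, and the UMI limits Wfdc17. In clusters 2, 10 and 12 the counts were 10, 10 and 17, against 27, 32 and 3 with the block, 20, 118 and 36 with a tag ratio of 1.5, and 7 to 24, 5 to 23 and 6 to 74 without 1 mouse. With that ratio Stfa2 was called lower in cluster 10 (-1.28, adjusted p = 0.0087). GMPs gave 1389, or 2105 with the block, monocyte-like cells 508, all assigned cells 539, or 1204 with the block, and HSC/MPP-like cells 2, with 11 with the block and 0 with a tag ratio of 1.5. The share of member UMIs in neutrophil-like cells (80.6%, median over members and mean over mice) was 54.7% with a tag ratio of 3, 95.7% with the UMI limits, 91.8% without Scrublet-marked cells and 79.0% to 82.3% without 1 mouse.

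Small log2 fold changes of BRQ against vehicle changed sign. With the block, Wfdc17 was at -0.059 in GMPs and -0.069 in HSC/MPP-like cells, and Stfa2 at 0.29 in cluster 10. With the UMI limits, Retnlg was at 0.25 and Stfa2 at 0.035 in neutrophil-like cells. With a tag ratio of 1.5, Retnlg was at -0.12 and Stfa3 at -0.17 in cluster 10. Leaving out 1 mouse in turn gave a range in neutrophil-like cells of -0.66 to 0.16 for Retnlg, -1.69 to 0.19 for Stfa2 and -0.61 to 1.08 for Stfa3. In cluster 10 it gave -1.44 to 0.81 for Cstdc4, -0.024 to 0.48 for Retnlg, -0.67 to 0.38 for Stfa2, -0.83 to 0.16 for Stfa2l1 and -0.070 to 0.98 for Stfa3. It gave -0.70 to 0.014 for Stfa3 in cluster 12 and -0.39 to 0.054 for Asprv1 in cluster 2. The cause was not tested. Precision is limited by 3 mice per group, by 4 to 26 NTB cells per mouse in cluster 2 and by the 31.5% to 52.1% of barcodes per pool without a hashtag call.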
